A study of Mus musculus with 11 samples.

Results

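The miR-297, miR-466, miR-467 and miR-669 miRNAs were followed across mouse mammary glands of 3 strains and C3TAg mammary tumors. They were chosen by name only, as every plus-strand mouse spot of the array whose annotation carries any of these names, with any letter or star after it. The choice gave 7 of the 334 mouse miRNAs on the array, namely mmu-miR-297, mmu-miR-297b, mmu-miR-466, mmu-miR-467*, mmu-miR-669a, mmu-miR-669b and mmu-miR-669c, written below without the species prefix. Each had 4 spots, so that 28 of the 1336 plus-strand spots on an array were members.

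These rodent miRNAs belong to a large family of repeated hairpins, most copies of which lie together in an intron of Sfmbt2. Sfmbt2 encodes a Polycomb-group protein and is an imprinted gene, expressed from the paternal allele in the placenta and other extraembryonic tissue, and the cluster is known above all for its part in placental growth. A miRNA guides the silencing complex to mRNAs that pair with its seed, bases 2 to 8 from its 5′ end. Mature copies that differ by a few bases can therefore share a seed or have different ones.

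RNA was profiled from normal glands of female mice of the strains FVB (2 arrays), Balbc (3 arrays) and FVB129B6 (3 arrays), and from primary mammary tumors of female C3TAg mice on the FVB strain (3 arrays). By the study's text the glands came from pregnant mice, chosen because a pregnant gland is rich in epithelium, and C3TAg stands for the C3(1)/Tag model, in which the C3(1) promoter drives SV40 T antigen. The titles of Balbc replicates 2 and 3 share a mouse-like code, M2, so these may be glands of 1 animal, and p-values then measure in part the spread within it. Both dyes of the array were scanned, and the labels name the green one, Hy3, as the sample.

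The sequences that the 7 probes detect are shown because their likeness decides which signals are separate measurements. They were read from the deposited probe sequences and are written in DNA letters from 5′ to 3′, with the seed in capitals.
miR-297: aTGTATGTgtgcatgtgcatg
miR-297b: aTGTATGTgtgcatgaacatgt
miR-669a: aGTTGTGTgtgcatgttcatgt
miR-669b: aGTTTTGTgtgcatgtgcatgt
miR-669c: aTAGTTGTgtgtggatgtgtgt
miR-467*: gTAAGTGCctgcatgtatatg
miR-466: aTACATACacgcacacataagac

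miR-297 and miR-297b had the same seed, and no other pair did. No miRNA outside the 7 had the seed of a member. The sequences of miR-669a and miR-669b lay 2 base edits apart and those of miR-297 and miR-297b 3 edits apart, while the nearest other miRNA on the array, miR-468, lay 7 edits from miR-297. RNA of a close relative can bind these probes, so the values of each such pair may hold signal of its partner. The letters TGTGTG, read on the miRNA strand only, stood in 5 members, miR-297, miR-297b, miR-669a, miR-669b and miR-669c, and in 9 of the 334 mouse miRNAs (2.69%). miR-466 differed from them in composition. It was 78.3% A and C, and a run of 9 bases of miR-297 and miR-297b, TATGTGTGC, was complementary to part of it. miR-467* lay 7 base edits from its nearest neighbour, miR-297.

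The glands were bright and the tumors dim. Median intensities ran from 125 to 170 in the tumors, from 188.5 to 245.5 in FVB and from 508 to 671.5 in the other glands. The precision of every value is limited by how few arrays there were. A level is given here as the log2 green intensity minus the median of the array, averaged over the spots of a miRNA, so that 0 is the median spot. Random 22-base control probes, which match no miRNA, lay at levels of -4.92 to -4.66 on the Balbc and FVB129B6 arrays, at -3.76 and -3.71 on the FVB arrays and at -0.07 to 0.14 in the tumors. In the tumors the median spot thus lay close to the random probes. All glands lay on 1 slide. FVB129B6 arrays 1 and 2 lay in its column 1, FVB129B6 3 and Balbc 1 in column 2, Balbc 2 and 3 in column 3, and both FVB arrays in column 4. The strain FVB and column 4 cannot be told apart.

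In the glands the family was detected nearly throughout. The scanner program called 201 of 224 member spots well above background (89.7%), against 72.8% of all plus-strand spots and 3.13% of the random spots. miR-466, miR-467*, miR-669a, miR-669b and miR-669c were detected, with at least 50% of spots called, on all 8 gland arrays. miR-297 was detected on 7, with 1 of 4 spots called on FVB 2. miR-297b was detected on 5, with no spot called on either FVB array and 1 on Balbc 3. All 7 thus passed the filter of 3 gland arrays. In the tumors 27 of 84 member spots were called (32.1%), against 11.1% of all plus-strand spots.

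**Figure D1:**
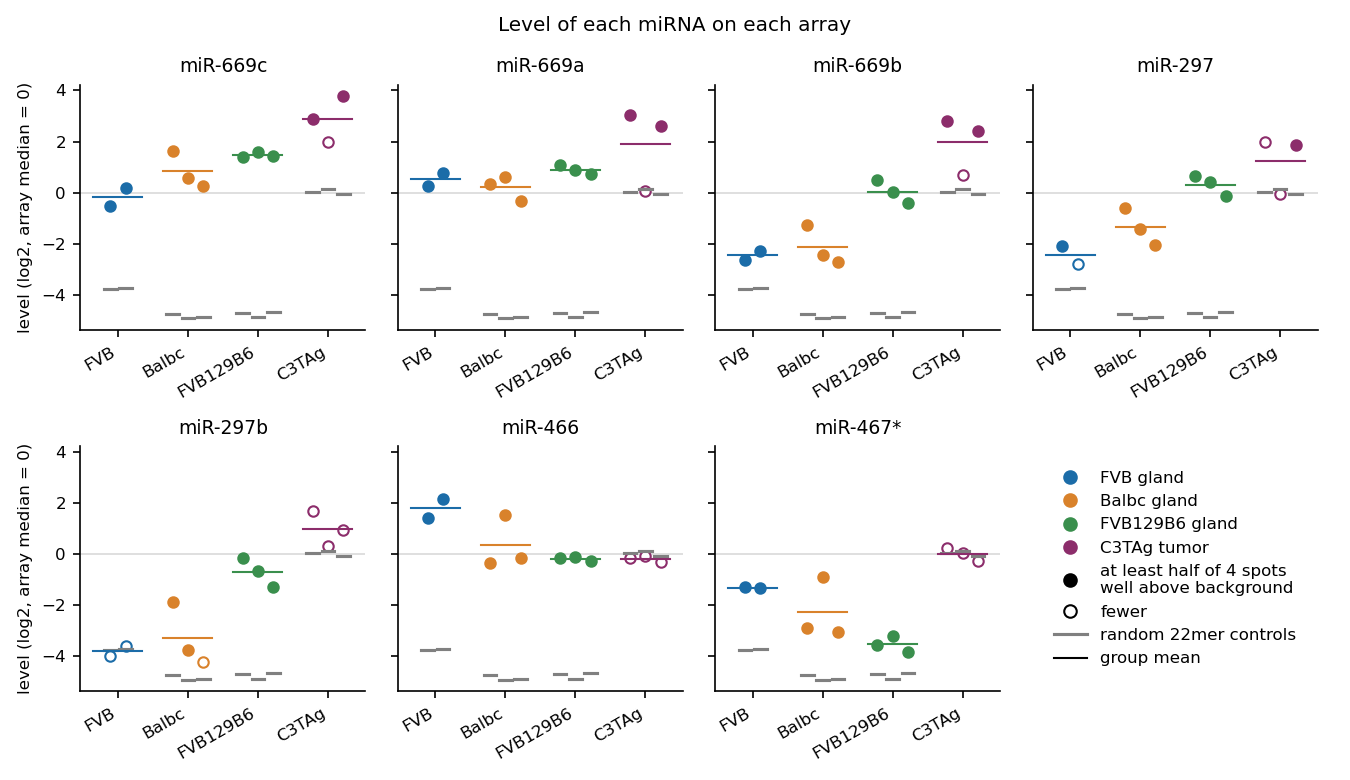
Level of each miRNA (log2, array median at 0) on every array, by group. Filled points had at least 2 of 4 spots well above background, coloured bars are group means and grey bars the random 22-base controls of the same array. In the tumors the controls lie near 0, where miR-466 and miR-467* also lie.

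Across the strains, on the scale of the array median, members differed in both directions. miR-297, miR-297b, miR-669b and miR-669c were higher in FVB129B6 than in FVB glands, miR-466 and miR-467* were lower, and miR-669a was not called. The limma F-test over the 3 strains called 6 of the 7 members at an adjusted p of at most 0.05, where it called 120 of all 261 tested miRNAs (46%). The contrast of FVB129B6 with FVB called the same number, 4 higher and 2 lower. Of all tested miRNAs it called 39.5%, or 8.05% as higher and 31.4% as lower. The median log2 difference was 1.65 over the 7 members and -0.39 over the 261. The lower calls depended on the scale of the arrays. With the median of the miRNAs detected on all arrays 4 members were called higher and 0 lower, where 50 and 22 of all 261 miRNAs were. Both with the random controls and without normalization 5 members were called higher and 0 lower. Of all 261 miRNAs, 117 were then called higher and 5 lower with the random controls, and 176 and 3 without normalization.

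miR-297 had levels of 0.66, 0.43 and -0.14 on the FVB129B6 arrays, of -0.60, -1.41 and -2.05 on the Balbc arrays and of -2.08 and -2.78 on the FVB arrays. The 3 strains did not overlap, though the lowest Balbc level lay only just above the highest FVB level. FVB129B6 exceeded FVB by 2.75 (standard error 0.45, adjusted p = 0.0038, limma), a 6.71-fold difference, with miR-297 detected on 1 of the 2 FVB arrays. The difference was also 2.75 with signals raised to the lowest detected level of each array. With normexp, another background correction, it was 0.70 (adjusted p = 0.0322, limma).

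miR-297b, which shares its seed, had levels of -0.17, -0.67 and -1.28 in FVB129B6, of -1.89, -3.75 and -4.23 in Balbc and of -3.99 and -3.59 in FVB. The FVB values sat at the random controls, differing from them by -0.23 and 0.12. Since FVB was not well above background, the difference from FVB129B6 (adjusted p = 0.00844, limma) is a bound, at least 4.36-fold. It was computed from the mean of FVB129B6 and the lowest level of a detected miRNA on each FVB array. Other scalings put that bound between 1.19-fold (normexp) and 8.78-fold (random controls). The call was lost with normexp (adjusted p = 0.202) and with green divided by red (adjusted p = 0.356).

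miR-669b followed the same order. Its levels were 0.50, 0.03 and -0.41 in FVB129B6, -1.25, -2.45 and -2.71 in Balbc and -2.63 and -2.26 in FVB, where 2 of 4 spots were called on each array. FVB129B6 lay above both other strains, and Balbc and FVB overlapped. The difference of FVB129B6 from FVB was 2.48 (standard error 0.45, adjusted p = 0.00479, limma). The call was lost with normexp (0.51, adjusted p = 0.0575) and with green divided by red (0.74, adjusted p = 0.104).

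miR-669c had levels of 1.40, 1.61 and 1.44 in FVB129B6, of 1.65, 0.58 and 0.27 in Balbc and of -0.52 and 0.20 in FVB. Here the highest Balbc array lay above every FVB129B6 array. FVB129B6 exceeded FVB by 1.65 (standard error 0.41, adjusted p = 0.0157, limma). The call was lost without FVB129B6 2 (adjusted p = 0.0523) and without FVB 1 (adjusted p = 0.0753).

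miR-669a, the nearest neighbour of miR-669b in sequence, had the smallest range of the members over the glands. That range was 1.40, near the median range of 1.33 over the 261 tested miRNAs. Its levels were 1.08, 0.90 and 0.71 in FVB129B6, 0.35, 0.61 and -0.32 in Balbc and 0.27 and 0.77 in FVB. FVB overlapped both other strains, while every FVB129B6 level lay above those of Balbc. The difference of FVB129B6 from FVB was 0.38 (standard error 0.30, adjusted p = 0.343, limma), which was not called.

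On the median scale the miRNAs without TGTGTG ran the other way. miR-466 had levels of -0.15, -0.09 and -0.28 in FVB129B6, of -0.34, 1.55 and -0.17 in Balbc and of 1.42 and 2.16 in FVB, so that Balbc 2 lay with the FVB arrays. FVB129B6 minus FVB was -1.97 (standard error 0.54, adjusted p = 0.0228, limma). With any 1 of the FVB129B6 arrays left out, or FVB 2, the call was lost (adjusted p from 0.0584 to 0.128).

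miR-467* had levels of -3.56, -3.21 and -3.81 in FVB129B6, of -2.89, -0.87 and -3.03 in Balbc and of -1.29 and -1.33 in FVB. Balbc 2 was again the high array of its strain. The difference of FVB129B6 from FVB was -2.22 (standard error 0.60, adjusted p = 0.0213, limma), with 2, 4 and 2 of 4 spots called on the FVB129B6 arrays. The call was lost when FVB129B6 1, FVB129B6 3 or either FVB array was left out, at adjusted p-values from 0.0583 to 0.0794.

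**Figure D2:**
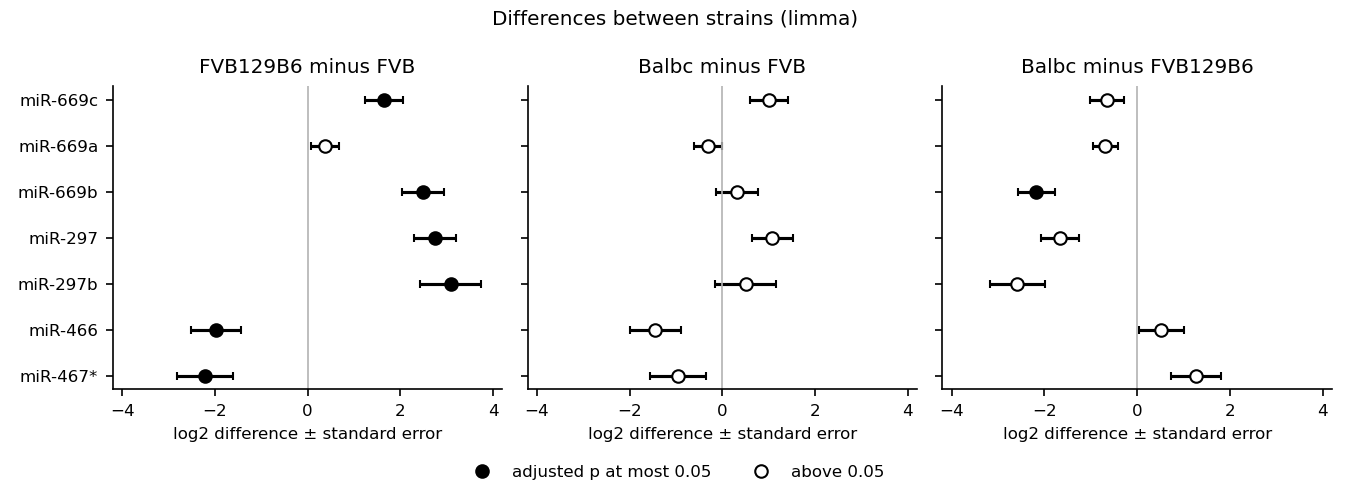
Log2 differences between strains for each miRNA, with the standard error of the limma contrast as bars. Filled points have an adjusted p of at most 0.05. The FVB129B6 minus FVB panel holds 4 filled points above 0 and 2 below, the Balbc minus FVB panel none, and the Balbc minus FVB129B6 panel 1, miR-669b at -2.17.

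No member passed the test between Balbc and FVB glands. The contrast called 0 of 7 by limma, against 37.9% of all tested miRNAs (5.75% higher and 32.2% lower), and 3 members had an unadjusted p under 0.05. The 3 were miR-297 at 1.08 (standard error 0.45, adjusted p = 0.0937), miR-669c at 1.00 (standard error 0.41, adjusted p = 0.0915) and miR-466 at -1.44 (standard error 0.54, adjusted p = 0.0704). Balbc and FVB did not overlap for miR-297 and miR-669c, but by little. The lowest Balbc and highest FVB levels were -2.05 and -2.08 for miR-297, and 0.27 and 0.20 for miR-669c. The share of all tested miRNAs without overlap is not given. Without Balbc 2, and without Balbc 3, 2 of 7 members were called, against 32% and 33.1% of all tested miRNAs. Without normalization 5 members were called, against 57.9%, and with the random controls as scale 3, against 47.1%.

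Between Balbc and FVB129B6 glands only miR-669b was called, at -2.17 (standard error 0.41, adjusted p = 0.0332, limma), where 3.45% of all tested miRNAs were (1.15% higher and 2.3% lower). miR-297b at -2.59 (standard error 0.59, adjusted p = 0.0644) and miR-297 at -1.67 (standard error 0.40, adjusted p = 0.0683) had no overlap between these strains but did not pass. The same held for miR-669a at -0.69 (standard error 0.27, adjusted p = 0.207) and, in the other direction, miR-467* at 1.26 (standard error 0.54, adjusted p = 0.233). The share of all tested miRNAs without overlap is not given, so this only describes the members. The call of miR-669b was lost when any 1 FVB129B6 array, Balbc 2, Balbc 3 or either FVB array was left out. It was kept without Balbc 1, where 3 members and 6.23% of all tested miRNAs were called.

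Position on the slide ran with part of these values. Within Balbc, the arrays of column 3 minus the array of column 2 gave -2.11 for miR-297b, which was the lowest of all 261 tested miRNAs, -1.32 for miR-669b, -1.22 for miR-669c, -1.13 for miR-297 and -0.20 for miR-669a. miR-466 at 1.03 and miR-467* at 0.94 went the other way, but through Balbc 2 alone. For miR-466 Balbc 1 had -0.34, and Balbc 2 and 3 in column 3 had 1.55 and -0.17. For miR-467* these levels were -2.89, -0.87 and -3.03, so that Balbc 3 lay below the array of column 2. A difference below -1 was seen in 4 of the 7 members and in 13 of the 261 miRNAs (4.98%). The same split separates the arrays titled M1 and M2, so column and animal cannot be told apart. Within FVB129B6, the array of column 2 minus those of column 1 was below 0 for all 7 members, from -0.86 to -0.06. That was so for 50 of the 261 miRNAs (19.2%). miR-466 at -0.15 and miR-467* at -0.42 thus did not go the other way there. Within column 2, which held an array of each strain, Balbc minus FVB129B6 was -0.84 for miR-669b, -0.61 for miR-297b, -0.45 for miR-297, -0.36 for miR-669a, -0.06 for miR-466, 0.20 for miR-669c and 0.92 for miR-467*. With the column as a block over the glands, which gives these differences as its estimates, none of the 7 was called, nor was any of the 261 miRNAs, and that of miR-669b had a standard error of 0.38 (adjusted p = 0.955, limma). A column block over all 11 arrays, which takes the columns of both slides as alike and was chosen after the data were seen, could also be fitted to FVB129B6 minus FVB. The calls of miR-669b (0.81, adjusted p = 0.234), miR-297 (1.02, adjusted p = 0.211), miR-669c (0.30, adjusted p = 0.755), miR-466 (adjusted p = 0.199) and miR-467* (adjusted p = 0.205) were then lost. That of miR-297b was kept (adjusted p = 0.0345), and miR-669a came to a called difference of -2.27 (adjusted p = 0.046). This fit called 2 of 7 members and 17.2% of all tested miRNAs. Its effect of column 4 came only from the tumors, as tumor 2 minus tumors 1 and 3, which was -2.74 for miR-669a. No member spot was called in tumor 2, so these lost and gained calls do not measure a column effect in the glands.

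The red channel, whose sample the labels do not name, was lower in column 4 than in column 1 for the 5 miRNAs with TGTGTG. miR-297b had red levels of -1.77 and -2.06 in column 1, -2.62 and -3.28 in column 2, -4.17 and -3.93 in column 3 and -5.22 and -4.75 in column 4. miR-669b went from -1.06 and -1.38 in column 1 to -3.32 and -3.72 in column 4, and miR-669c from -0.22 and -0.06 to -2.07 and -1.96. miR-669a, which was not called between strains in green, went from 0.01 and -0.17 in red in column 1 to -1.06 on both arrays of column 4. miR-466, in contrast, kept red levels from -0.04 to 0.18 on all 8 arrays while its green levels spanned 2.50. With the green signal divided by the red one, miR-297 was the only member called between FVB129B6 and FVB (1.37, standard error 0.26, adjusted p = 0.0127, limma), where 14.9% of all tested miRNAs were called. On that scale miR-669c came to 0.12 and miR-466 to -1.67 (adjusted p = 0.0646).

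**Figure D3:**
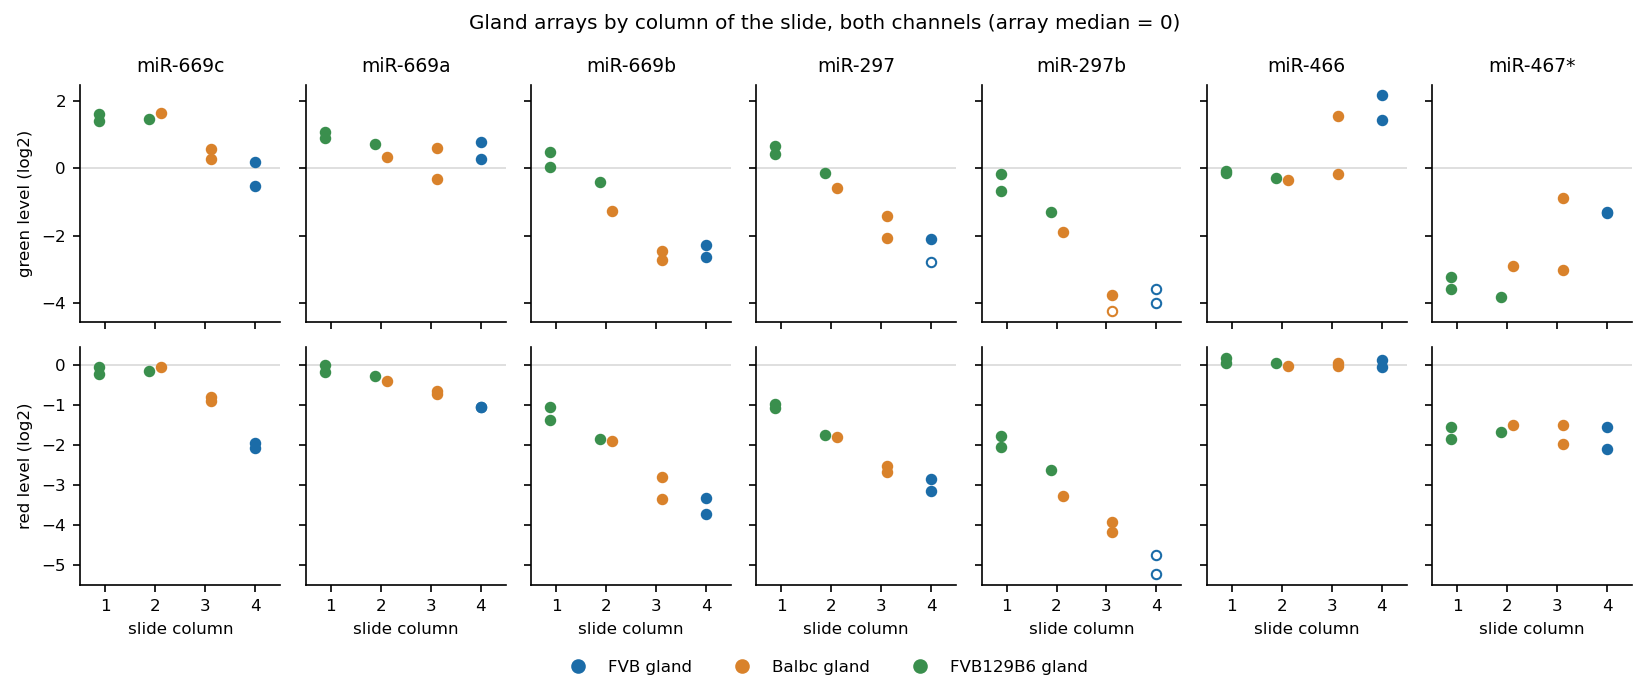
Green (top) and red (bottom) level (log2, array median at 0) of each miRNA on the 8 gland arrays, against the column of the slide on which the array lay. Colours are strains, and open points had fewer than 2 of 4 spots well above background. In red the miRNAs with TGTGTG lie lower in column 4 than in column 1, while miR-466 lies between -0.04 and 0.18.

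The members moved in 2 sets over the glands. Pearson correlations of green levels over the 8 arrays, which share 1 slide and its columns, ranged from 0.49 to 0.995 in the 10 pairs of miRNAs with TGTGTG, a grouping made after the values were seen. They ranged from -0.76 to 0.08 in the 10 pairs that joined such a miRNA to miR-466 or miR-467*, and that last pair had 0.93. The miRNAs outside the family with the most similar pattern, of 254 compared, were miR-328 for miR-297 (0.97), miR-346 for miR-297b and miR-669b (0.99 for both), miR-672 for miR-669c (0.97) and miR-211 for miR-669a (0.88). miR-191 was the closest to miR-466 (0.95) and miR-363 to miR-467* (0.91). The next closest were miR-346 for miR-297 (0.94), miR-667 for miR-297b and miR-669b (0.97 for both), miR-468 for miR-669c (0.95), miR-469 for miR-669a (0.85) and miR-186 for both miR-466 (0.92) and miR-467* (0.88). Of these miRNAs, miR-363 was detected on 3 of the 8 gland arrays, miR-211 and miR-469 on 4, and miR-346, miR-667 and miR-468 on 6. Their correlations thus rest in part on background. miR-672 is itself among the 4 miRNAs outside the family that hold TGTGTG, and miR-468 has the longest run of alternating purines and pyrimidines outside the family, 12 bases.

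Such alternating runs of at least 8 bases, which every member has, occurred in 14 other miRNAs, of which 11 were tested. Between FVB129B6 and FVB, 3 of the 11 were called higher and 3 lower. miR-468 was called higher (adjusted p = 0.00363, limma) but was well above background on neither FVB array, so no difference is given. miR-139 differed by -1.93 (adjusted p = 0.00589) and miR-210 by -0.61 (adjusted p = 0.12). In the test over the 3 strains 10 of the 11 were called, against 46% of all tested miRNAs. Of the 4 miRNAs with TGTGTG outside the family, FVB129B6 minus FVB was 4.82 for miR-206, a muscle miRNA (adjusted p = 0.00275), 2.52 for miR-672 (adjusted p = 0.00363), 0.49 for miR-294 (adjusted p = 0.392) and -0.82 for let-7b (adjusted p = 0.0122). miR-294 was detected on only 3 of the 8 gland arrays. Its mean FVB level of -3.79 lay at the random controls, so its value is set in part by background.

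Cell type markers moved between the strains as well. All 7 epithelial miRNAs listed (the miR-200 family, miR-205 and miR-203) were detected on every gland array, and 1 to 4 of them on a tumor array. A summed level is the log2 of the signals of a list added together on the scale of the array median, not a sum of log2 levels. Their summed levels were 8.77 to 9.80 in FVB, 8.06 to 8.94 in Balbc and 8.90 to 9.27 in FVB129B6. The 3 erythroid miRNAs summed to 9.53 and 9.61 in FVB, 7.67 to 8.72 in Balbc and 6.83 to 7.39 in FVB129B6. The 3 muscle miRNAs on the array summed to 3.64 and 6.02 in FVB, 9.17 to 9.97 in Balbc and 8.45 to 8.62 in FVB129B6. The 4 lymphoid and myeloid miRNAs summed to 5.93 and 6.16, 5.27 to 8.40 and 5.33 to 5.68 in the same order. Of the 6 embryonic stem cell miRNAs on the array, 0 to 2 were detected on a gland array, and miR-293, miR-295, miR-302 and miR-302d on none. The 1 endothelial miRNA on the array, of 2 listed, was detected on all FVB129B6 arrays and on some of the others. The part of cell content in the differences above was not tested, and fewer cells of a type and less RNA per cell cannot be told apart in whole tissue.

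In C3TAg tumors the members were measured near the limit of the arrays. miR-669c had tumor levels of 2.90, 1.98 and 3.80, with 4, 0 and 4 of 4 spots called. miR-669b had 2.79, 0.70 and 2.42, with 4, 0 and 4 spots called. miR-669a had 3.05, 0.08 and 2.60, with 4, 0 and 3 spots called. These 3 were thus detected in tumors 1 and 3, and no spot of any member was called in tumor 2.

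miR-297 had tumor levels of 1.97, -0.05 and 1.85, with 1, 0 and 3 spots called, so that it was detected in tumor 3 only. miR-297b at 1.69, 0.30 and 0.94, miR-466 at -0.16, -0.06 and -0.31 and miR-467* at 0.23, 0.06 and -0.27 had no spot called in any tumor. The lowest level at which a miRNA was detected averaged 1.80 over the tumor arrays, above the mean gland level of these miRNAs (-2.60, 0.66 and -2.37). No fold is therefore given for them.

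Tumor 2 lay in column 4 of the tumor slide and the others in column 1. The array in column 4 minus the mean of those in column 1 was -2.74 for miR-669a, the lowest of the 261 miRNAs, -1.96 for miR-297, -1.90 for miR-669b, -1.37 for miR-669c and -1.01 for miR-297b. A difference below -1 was seen in 5 of the 7 members and in 49 of the 261 miRNAs (18.8%). Tumor and column cannot be told apart here.

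After median normalization the limma contrast of tumors with the mean of the 3 strains called all 7 members, 6 higher and 1 lower, where it called 90.4% of the 261 miRNAs (37.9% higher and 52.5% lower). Of the 7, miR-297b and miR-467*, called higher, and miR-466, called lower, had no spot called in any tumor. Their calls set tumor background against gland signal and give no size. For the members detected in 2 of 3 tumors the log2 difference was 3.49 for miR-669b (standard error 0.45, adjusted p = 2.52e-05), 2.17 for miR-669c (standard error 0.39, adjusted p = 0.000302) and 1.37 for miR-669a (standard error 0.53, adjusted p = 0.03). Their tumor means were 1.97, 2.89 and 1.91, against a mean detection level of 1.80. These means include tumor 2, where no spot of them was called, so background enters these sizes too. miR-297, detected in 1 tumor and with a tumor mean of 1.26 below the detection level, was called higher (adjusted p = 0.000438), and its size is set in part by background. Against the FVB glands alone, the strain of the tumors, miR-669b (4.42) and miR-669c (3.05) were called higher, while miR-669a at 1.39 was not (adjusted p = 0.0856).

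The direction depended on the scale. The random controls lay near the tumor median and far below the gland medians, and with these controls as the scale, chosen after the data were seen, 5 of the 7 members were called lower in the tumors and 0 higher, against 93.9% of all tested miRNAs lower. miR-669a then differed by -3.11 (adjusted p = 0.000306), miR-669c by -2.31 (adjusted p = 0.000263) and miR-669b by -0.99 (adjusted p = 0.0631). On that scale the median of all 261 miRNAs was -5.31, and on the median scale it was -0.83. On both scales miR-297b, miR-466 and miR-467* entered with tumor signals at background. Slide, program version and dye scaling (a green factor of 31.7 to 55.7 in the tumors and 4.89 to 6.39 in the glands) differed between tumors and glands, so tissue and run cannot be told apart.

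**Figure D4:**
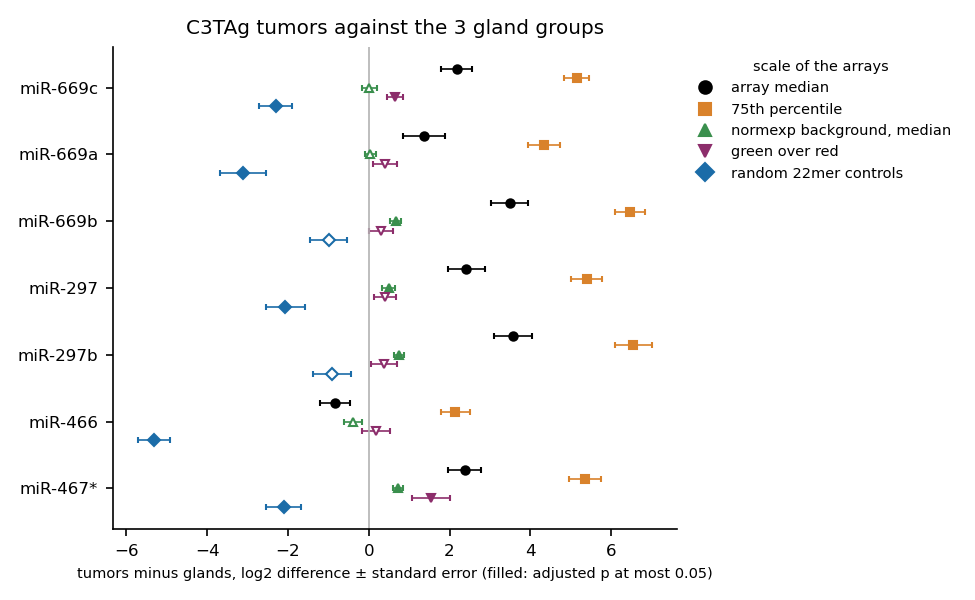
Log2 difference of C3TAg tumors from the mean of the 3 gland groups for each miRNA under 5 scales of the arrays, with the standard error as bars and filled points for an adjusted p of at most 0.05. Points of 1 miRNA lie on both sides of 0, as for miR-669c at 2.17 on the array median and at -2.31 on the random controls.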

How the data were processed

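Total RNA was end-labeled and hybridized to a custom 2-color Agilent array. The authors deposited Feature Extraction intensity values per spot (background subtracted, dye normalized) with quality flags, and a log2 table of the 1336 plus-strand spots. The deposited log2 values equal the log2 green intensity plus 1 constant per array (SD 0). From the scanner intensities, 3 of 308 member spots flagged as outliers were left out, the array median was subtracted and the 4 spots averaged. No green spot was saturated. miRNAs with at least 50% of spots well above background on at least 3 arrays of the fit were tested (261 of 334, in both fits) with limma 3.58.1 in R 4.3.3: 8 glands for the strains, 11 arrays for the tumors, no covariates, Benjamini-Hochberg over all tested. Depth does not apply to arrays. The text names every member, the 2 likest other miRNAs by Pearson correlation and the 3 others with the longest alternating run. Members, lists and tests were chosen with earlier results of these data known. In simulated data of 261 miRNAs, 66% of log2 changes of 1 and 90% of changes of 2 were recovered for Balbc against FVB, and 70% and 94% for tumors. Alternatives covered scaling, background, channel, filters, blocks and left-out arrays. Replicate numbers did not pair the samples.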

Additional observations from a re-analysis of the deposited data

Results flagged for a closer look

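On the 8 gland arrays 96.9% of the member spots were, in red, well above background, against 3.13% of the random 22-base control spots and 86.3% of all plus-strand spots. This was listed because the labels name only the green dye and the comparisons rest on it. On the tumor arrays 9.52% of the red member spots were called. Over the 8 glands the green and red levels had Pearson correlations of 0.93 to 0.97 for miR-297, miR-297b, miR-669b and miR-669c, 0.45 for miR-669a, -0.05 for miR-466 and -0.47 for miR-467*, with a median of 0.39 over the 261 tested miRNAs. The points share the slide and its columns. What was labeled in red was not tested.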

How the results depend on the processing

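Of 736 recomputed member differences, 609 kept both direction and side of the threshold, 71 were no longer called, 23 became called and 33 changed sign. Leaving out each FVB129B6, Balbc or tumor array gave 3 to 6 members called between strains (29.8% to 40.1% of all tested miRNAs). The count was 0 to 2 for Balbc minus FVB (29.8% to 36.5%) and 4 to 6 for FVB129B6 minus FVB (27.8% to 43%). It was 0 to 3 for Balbc minus FVB129B6 (0% to 6.23%) and 5 to 7 for tumors (87.7% to 90.3%). The strain count was 3 without FVB129B6 1, 2 or 3, where the share of all fell too, from 46% to 30.2%, 29.8% and 39.2%. Fits without an FVB array hold 1 array of that strain, so their counts are not given. The arrays carry replicate numbers that do not pair them: deviations of same-numbered arrays had a mean correlation of 0.044 and others -0.0221. With the replicate block 3 members were called between strains (36.8% of all), 1 for Balbc minus FVB (36.8%) and 3 for Balbc minus FVB129B6 (5.36%).

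Between strains, 1 member was called with green over red (23% of all tested miRNAs) and 0 with the column as a block over 11 arrays (3.45%). For FVB129B6 minus FVB 3 were called with normexp (46%), 1 with green over red (14.9%) and 2 with the column block (17.2%). For Balbc minus FVB the count was 1 with the median of miRNAs detected on all arrays (26.4%), 5 without normalization (57.9%), 1 with green over red (24.9%), 2 with Balbc 2 and 3 averaged (33.1%) and 3 with the random controls as scale (47.1%). For Balbc minus FVB129B6 it was 2 with all 11 arrays in the fit (6.51%), and 0, where 0% to 2.33% of all were called, with the 75th percentile, the median of detected miRNAs, quantile normalization, normexp, green over red, detection required on every array, Balbc 2 and 3 averaged, the slide row as a block, and the column block over 11 arrays or 8 glands. For the tumors it was 3 without normalization (88.9%), 4 with normexp (90.4%) and 2 with green over red (66.7%). Detection on every array left no member to test in the tumors.

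Sign changes for Balbc minus FVB were: with normexp miR-297 -0.11, miR-297b -0.37 and miR-669b -0.35; with green over red miR-297b -0.18 and miR-669b -0.014; with low signals raised to the detection level miR-297b -0.46; with arrays left out miR-297b from -0.20 (without Balbc 1) to 0.97 and miR-669b from -0.13 (without Balbc 1) to 0.59; without normalization miR-467* 0.40 and miR-669a 1.04; with the random controls miR-467* 0.15 and miR-669a 0.80; with the 75th percentile and the median of detected miRNAs miR-669a 0.12 and 0.14; and with the column block miR-669b -0.037. For FVB129B6 minus FVB, miR-669a turned to -0.19 with green over red and to -2.27 with the column block. For Balbc minus FVB129B6, miR-466 ranged from -0.078 (without Balbc 2) to 0.87 with arrays left out and came to -0.061 with either column block, which put miR-669c at 0.20. For the tumors, the random controls gave -2.06 for miR-297, -0.91 for miR-297b, -2.11 for miR-467*, -3.11 for miR-669a, -0.99 for miR-669b and -2.31 for miR-669c. miR-466 came to 2.14 with the 75th percentile, 1.70 with the median of detected miRNAs, 0.19 with green over red and 1.14 with raised low signals, and miR-669a to -0.14 without normalization. Values of miR-297b against FVB and of miR-297b, miR-466 and miR-467* in the tumors are signals at background, so the signs and sizes listed here for them measure no difference. The random controls and the column block were chosen after seeing the data. The cause of these changes was not tested.

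Over all miRNAs, the split of calls for FVB129B6 minus FVB went from 21 higher and 82 lower on the median scale to 40 and 43 with the 75th percentile and 117 and 5 with the random controls, and that for the tumors from 99 and 137 to 172 and 70 and to 0 and 245. Signal over background limits miR-297 and miR-297b in FVB, miR-297b on Balbc 3 and every member in the tumors.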
